A study of Nothobranchius furzeri with 6 samples.

Results

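Polyproline motifs are stretches of consecutive proline codons, and 1642 of them were followed here through ribosome footprints of killifish liver. A motif, called a run, was every stretch of 3 or more proline codons that lay at least 20 codons from both ends of its coding sequence. Its transcript also had to be covered at each age, which meant more than 64 reads in the internal part and more than 0.5 per codon after summing libraries. The runs lay in 953 of the 6335 covered transcripts (15.0%). In all 22757 transcripts of the series there were 8590 proline runs of this length at any position, and 1786 of those fell in covered transcripts. The rule used sequence and transcript coverage and did not use pause scores, although reads in the runs count toward that coverage.

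The livers were those of Nothobranchius furzeri, the African turquoise killifish, whose short life makes it a model of vertebrate aging. Ribosome profiling, which sequences the mRNA fragments that translating ribosomes shield from nuclease, was done at 5 weeks after hatching (young), 12 weeks (adult) and 39 weeks (old). Each age had 2 libraries, each from several livers pooled from equal numbers of males and females, so replicates differ as pools do and the spread between single fish is not seen. The labels name no strain, transgene or treatment for any age. The study methods give the strain as MZM-0410 unless otherwise stated, and name no other for these livers. All lysates held cycloheximide, a drug that blocks elongation. Transcript identifiers came without gene names, so markers of liver were not checked.

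Proline is a poor partner in peptide bond formation, because its side chain folds back onto the backbone nitrogen and restrains both the acceptor and the donor. Ribosomes that meet several prolines in a row slow down, and the translation factor eIF5A (EF-P in bacteria) binds next to the peptidyl-tRNA to help them through. Liver makes large amounts of secreted protein, which keeps its ribosomes busy on a few abundant mRNAs.

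The 6 libraries held between 22617158 footprints (old replicate 2) and 39738019 (adult replicate 1). A pause score is the number of reads at a codon over the mean reads per codon of the internal part of its transcript, so that 1 is the transcript's mean. Depth on single runs was thin: a median run held 13 reads over all libraries, 622 runs had reads in all 6, and 82 had 0 reads in every library. Precision therefore comes from many runs, or from the 60 runs with at least 20 reads in each library. The methods of the study speak of an estimate of the A site, whereas the response of these footprints to proline at the deposited codon could also be read as the P site. Positions are given as codons from the proline and not as ribosomal sites.

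The sequences below show which codons and neighbours the individual results turn on. Each has 5 codons on either side, from the deposited codon column, with the codons of the run in capitals (other prolines nearby stay in lower case). Runs A to J had the highest mean pause scores among runs with at least 20 reads in each library.
Run A, codons 106 to 110 of 581: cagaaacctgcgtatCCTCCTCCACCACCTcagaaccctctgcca
Run B, codons 659 to 661 of 871: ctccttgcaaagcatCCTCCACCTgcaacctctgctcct
Run C, codons 282 to 284 of 1070: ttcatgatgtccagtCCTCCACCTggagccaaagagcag
Run D, codons 273 to 275 of 341: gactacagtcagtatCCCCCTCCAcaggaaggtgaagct
Run E, codons 216 to 218 of 366: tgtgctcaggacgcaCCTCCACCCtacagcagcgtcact
Run F, codons 172 to 174 of 642: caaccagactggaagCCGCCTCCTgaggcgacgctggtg
Run G, codons 69 to 72 of 163: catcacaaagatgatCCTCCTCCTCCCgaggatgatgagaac
Run H, codons 208 to 210 of 247: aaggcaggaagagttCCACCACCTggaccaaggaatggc
Run I, codons 45 to 47 of 488: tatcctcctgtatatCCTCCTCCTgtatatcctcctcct
Run J, codons 70 to 73 of 488: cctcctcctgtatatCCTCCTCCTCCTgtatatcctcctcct
The next 6 runs are shown because a test described below called them between ages (K to O) or because of length (P, the longest). Runs K, L, N and O were called by Fisher's exact test on summed reads, which carry no library spread, and run M by edgeR.
Run K, codons 58 to 60 of 488: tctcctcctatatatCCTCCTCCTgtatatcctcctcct
Run L, codons 948 to 950 of 1070: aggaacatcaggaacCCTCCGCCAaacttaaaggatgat
Run M, codons 81 to 85 of 581: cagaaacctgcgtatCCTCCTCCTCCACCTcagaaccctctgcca
Run N, codons 350 to 353 of 663: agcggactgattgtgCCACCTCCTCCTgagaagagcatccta
Run O, codons 167 to 169 of 191: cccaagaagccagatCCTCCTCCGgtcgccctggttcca
Run P, codons 321 to 336 of 470: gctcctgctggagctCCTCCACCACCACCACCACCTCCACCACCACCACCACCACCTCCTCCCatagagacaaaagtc
Runs K, I and J share the same repeat, in which a tyrosine codon leads into proline codons and a valine codon closes them. Runs A and M also share a repeat, here from tyrosine to glutamine.

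Most runs were short. There were 1187 runs of 3 prolines, 284 of 4, 88 of 5 and 83 of 6 or more, and the longest, run P, had 16. Run P held 1 and 2 reads in young fish, 0 and 1 in adult fish, and 3 and 1 in old fish, too few to compare. A transcript held a single run in 652 cases, and 990 runs shared a transcript with another, up to 18 in a coding sequence of 727 codons. Glycine preceded 12 of those 18 runs, each had at most 8 reads in a library, and their mean pause score was 1.81 and 1.57 in young fish, 1.43 and 1.19 in adult fish, and 0.756 and 1.08 in old fish. Transcripts with a run were long, with a median of 547 codons against 347 for covered transcripts. The runs held 5746 of 139203 internal proline codons (4.13%). CCT made up 41.1% of the proline codons in runs against 30.4% of all internal prolines, while CCC made up 19.3% against 28.1%. CCA (27.9% against 26.8%) and CCG (11.7% against 14.8%) were closer to the background. Alanine preceded 13.2% of runs against 6.80% of internal codons, and serine followed 12.9% against 8.06%. Glycine stood before 9.99% of runs and after 9.87%, against 6.58% of internal codons. Aspartate was scarce on both sides, at 2.50% before and 3.78% after, against 5.40%.

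Ribosome density on polyproline runs was lowest in old livers. Averaged over the 1642 runs, the pause score was 1.12 and 1.12 in the young libraries, 1.22 and 1.18 in the adult libraries, and 0.971 and 0.882 in the old libraries. Both old libraries lay below all 4 younger ones, and both adult libraries lay above both young ones. The mean was 0.927 ± 0.063 in old and 1.12 ± 0.00432 in young livers (SD, n = 2 each), a difference of -0.193. Old runs thus held 82.8% of the young density and 77.2% of the adult density of 1.20 ± 0.0253 (SD, n = 2). Adult exceeded young livers by 0.0811. In each of these 3 comparisons the exact permutation test (two-sided) gave p = 0.33, the smallest that 2 libraries against 2 allow, so none can pass 0.05. The median run moved less evenly, at 0.822 and 0.878 in young fish, 0.916 and 0.794 in adult fish, and 0.727 and 0.623 in old fish. The ages share libraries between comparisons, so the 3 differences are not independent.

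Averaged over all runs, the footprint excess sat on the last proline. Aligned there, the mean pause score was 1.26 and 1.42 in young fish, 1.40 and 1.39 in adult fish, and 1.13 and 1.05 in old fish. It was lower in every library on the proline before (1.01 and 0.924 in young, 1.19 and 1.01 in adult, 0.917 and 0.778 in old fish) and dropped to between 0.719 and 0.877 at 2 codons past the run in all 6 libraries. In runs of exactly 3 prolines the 3 positions averaged 1.11, 1.07 and 1.39 over the 6 libraries. Isolated prolines and proline pairs showed the same place of maximum, at 1.32 on the isolated proline and at 1.62 on the second proline of a pair. The excess was small in the 1321 runs not followed by aspartate, glycine, glutamate or tryptophan. Their first proline averaged 1.07 in young, 1.04 in adult and 0.820 in old livers, and their last 1.10, 1.09 and 0.903. In young replicate 1 and adult replicate 2 the last proline of these runs lay below the first.

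**Figure D1:**
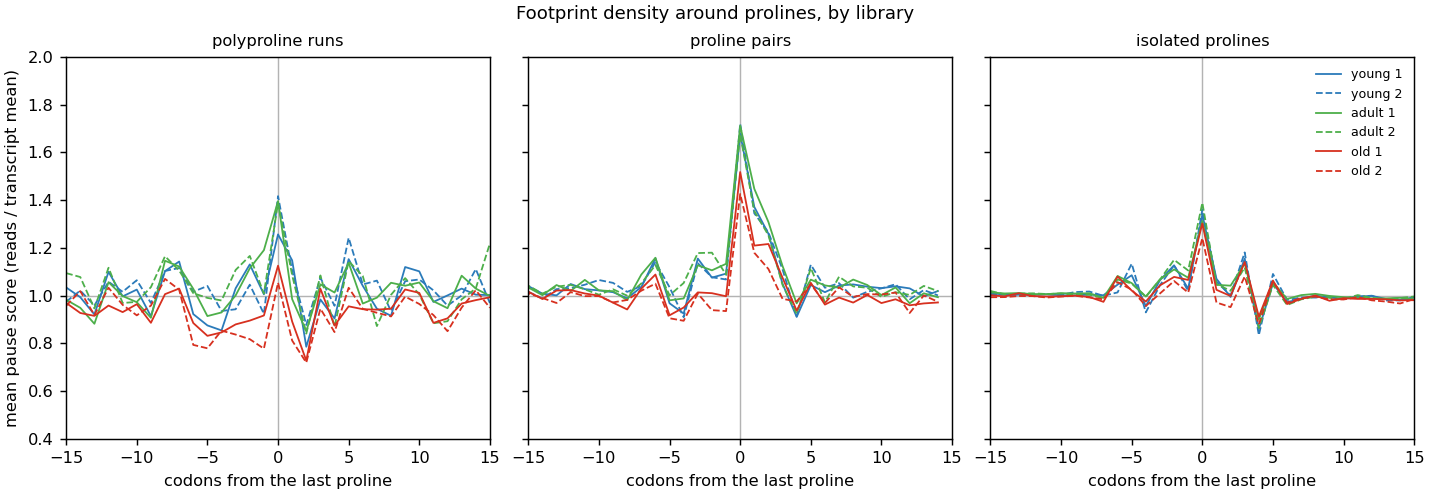
Mean pause score by codon from 15 before to 15 after the last proline, for polyproline runs (left), proline pairs (middle) and isolated prolines (right), with a line for each library (solid for replicate 1, dashed for replicate 2). On the last proline of runs the old libraries stand at 1.13 and 1.05, below the 4 younger libraries at 1.26 to 1.42.

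The neighbourhood of the runs was also thinner in old livers. From 6 to 15 codons before the first proline the density averaged 0.952 ± 0.021 in old and 1.01 ± 0.00957 in young livers, and over the same distance after the last proline 0.950 ± 0.0098 in old and 1.02 ± 0.0103 in young livers (SD, n = 2 each). With each library's run density divided by its own flanks, the values were 1.11 and 1.10 in young fish, 1.22 and 1.17 in adult fish, and 1.03 and 0.923 in old fish. The old minus young difference was then -0.127 against -0.193 without the division (exact permutation p = 0.33), and the old libraries again lay below all others. Base composition moved with age as well. Windows of 3 codons outside runs with 9 G or C bases of 9 averaged 0.833 and 0.758 in old and 0.839 and 0.920 in young libraries, whereas windows with 6 averaged 1.01 and 0.979 in old and 1.02 and 1.01 in young. The first 3 codons of runs with 6 G or C bases, the fewest that 3 proline codons can hold, averaged 1.05 and 0.913 in old and 1.16 and 1.18 in young. At 8 G or C bases the runs averaged 0.835 and 0.788 in old and 1.04 and 1.03 in young, against 0.948 and 0.890 in old and 0.976 and 0.996 in young for windows outside runs. The part of base composition in the age difference was not tested.

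Longer runs held fewer footprints per codon, at every age. Runs of 3 averaged 1.20 and 1.22 in young fish, 1.34 and 1.30 in adult fish, and 1.08 and 0.983 in old fish. Runs of 4 averaged 1.05 and 1.01, 1.01 and 0.986, and 0.798 and 0.726 at the same ages. Runs of 5 fell between 0.760 and 0.868 in the younger libraries and at 0.593 and 0.531 in old ones. Runs of 6 or more stood at 0.519 to 0.554 in the younger libraries and at 0.411 and 0.338 in old ones. Old livers held 85.5% of the young density on runs of 3, 74.0% on runs of 4, 71.1% on runs of 5 and 70.7% on longer runs, and in each length class both old libraries lay below all 4 others. The old minus young differences were -0.175, -0.267, -0.228 and -0.155 in that order, so on this scale the longest class differed least. Adult livers exceeded young ones on runs of 3, but over runs of 4 or more the adult minus young difference was -0.0125.

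Runs were not the prolines with the most footprints. Isolated prolines, of which there were 115947, averaged 1.27 ± 0.0434 in old and 1.35 ± 0.015 in young livers, and the 8725 pairs averaged 1.22 ± 0.0546 in old and 1.39 ± 0.00574 in young (SD, n = 2 each). Averaged over all their codons, runs lay below isolated prolines in all 6 libraries, by 0.30 ± 0.14 on the log2 scale (SD, n = 6). They also lay below pairs, by 0.31 ± 0.079. An exact sign-flip permutation test over the 6 libraries gave p = 0.03125 for both, its smallest value, and 0.0625 after Benjamini-Hochberg adjustment over the 10 kinds of stretch compared. On the last proline alone, runs stood above isolated prolines in young replicate 2 and adult replicate 1, and about level in adult replicate 2. They lay below isolated prolines there in young replicate 1 and both old libraries, and this was not tested. Runs of 3 or more of other residues were measured in the same way as the polyproline runs, over all their codons. Polyproline held more footprints than glutamate, lysine and glycine runs in 6 of 6 libraries, by 1.29, 0.58 and 0.39 on the log2 scale (adjusted p = 0.0625 each, exact sign-flip permutation test). With summed reads the glycine difference was 0.030, with 4 of 6 libraries higher (adjusted p = 0.688, exact sign-flip permutation test). Serine, alanine, leucine, glutamine and aspartate runs differed from polyproline by 0.19 or less on this scale in either direction, with the sign split among libraries, but this did not hold in other settings. With summed reads polyproline lay below leucine, alanine and aspartate runs in 6 of 6 libraries, at -0.56, -0.23 and -0.16 (adjusted p = 0.0446 each, exact sign-flip permutation test). The summed polyproline value leaned on 3 abundant transcripts, which held 23 of the 1642 runs. Without those transcripts it ranged from 1.07 to 1.21 over the 6 libraries. It then still lay below leucine runs in each library and stood above glycine runs in each. Against alanine and aspartate runs it was lower in some libraries and higher in others. The other residues kept all transcripts here, and no test was made. Counted from the first proline, the mean profile of all runs had its maximum on the third codon of the run. On that codon alone polyproline lay below leucine runs, at -0.51. It lay above aspartate and alanine runs there, at 0.48 and 0.22, and each held in 6 of 6 libraries.

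As a difference in mean pause score, the gap between old and young livers was widest on adjacent prolines among the stretches measured, but not when reads were summed. The old minus young difference was -0.171 for proline pairs and -0.0787 for isolated prolines. For runs of the other 8 residues it ranged from -0.0664 (alanine) to 0.111 (lysine). As a log2 ratio of the old over the young mean, lysine runs stood at 0.22, a wider gap than the -0.19 of pairs. With each library's log2 ratio of runs over another stretch taken first, the old minus young difference in that ratio was -0.085 for pairs and -0.19 for isolated prolines (exact permutation p = 0.33 for both, the smallest possible). Over serine and leucine runs it was -0.26 and -0.30 on the log2 scale (exact permutation p = 0.33 each). With reads summed before division, which weights stretches by depth, the old minus young difference was -0.0452 for runs and -0.136 for pairs, and between -0.147 (glycine) and 0.216 (glutamine) for the other residues. The log2 ratio then turned positive over pairs (0.085), isolated prolines (0.014) and glycine (0.17), alanine (0.061) and aspartate (0.11) runs. On the third codon of the run alone it was 0.0080 over glycine runs, whose own log2 ratio of old over young was -0.29 there.

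**Figure D2:**
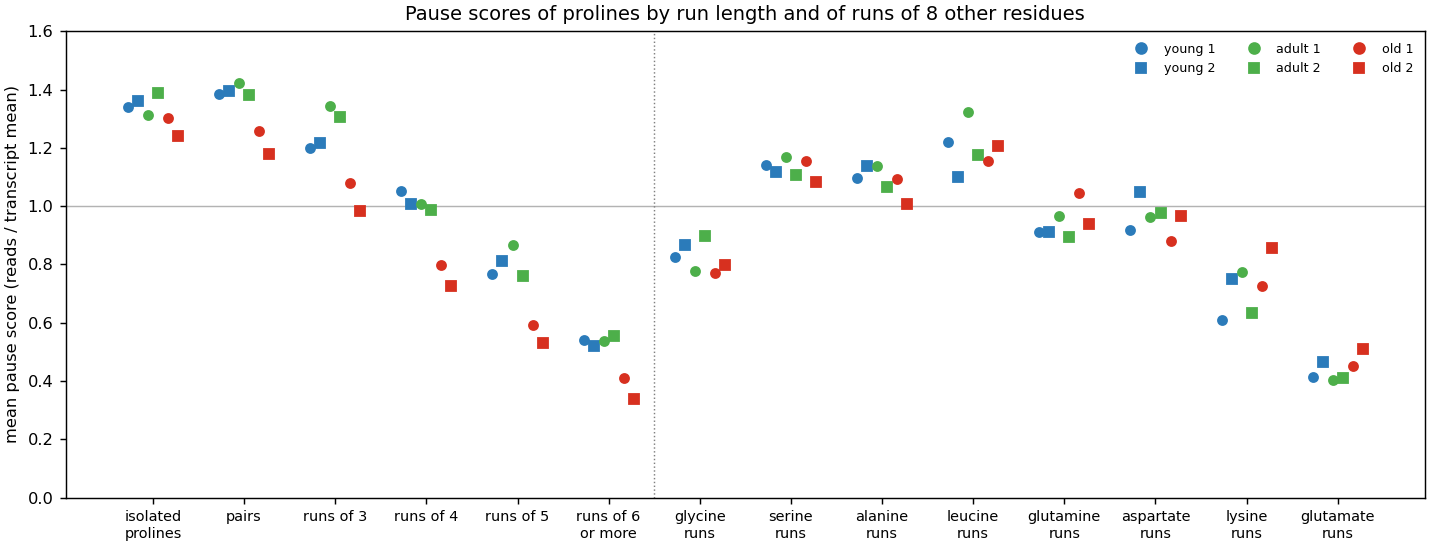
Mean pause score in each library (circles for replicate 1, squares for replicate 2) of isolated prolines, proline pairs, polyproline runs by length, and runs of 3 or more of 8 other residues. Density falls with run length, and the old libraries lie lowest at every proline length, isolated prolines included, and at 0.411 and 0.338 for runs of 6 or more.

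Density differed more between neighbouring residues than between ages. Runs followed by aspartate averaged 1.52 and 1.62 in young fish, 1.85 and 1.90 in adult fish, and 1.42 and 1.30 in old fish (62 runs). Runs followed by glycine averaged 1.49 and 1.55, 1.55 and 1.89, and 1.27 and 1.19 (162 runs). Those followed by threonine stayed low, at 0.801 and 0.776, 0.918 and 0.949, and 0.775 and 0.528 (103 runs). On the last proline itself the aspartate runs reached 2.69 ± 0.194 in young, 2.94 ± 0.153 in adult and 2.19 ± 0.131 in old livers (SD, n = 2 each). Their first proline was near the average, at 1.16 ± 0.0784, 1.30 ± 0.182 and 0.849 ± 0.0354. Upstream, glutamate marked the high end, at 1.61 and 1.55 in young fish, 1.82 and 1.70 in adult fish, and 1.22 and 1.45 in old fish (63 runs), and threonine the low end, between 0.701 and 0.889 over the 6 libraries (131 runs). These residues were singled out after their values were seen, and no test was made among them. Of the 17 residues with at least 20 runs on a side, the old mean lay below the young mean for all 17 before and all 17 after the run. Both old libraries lay below both young ones for 12 of 17 before and 13 of 17 after. Cysteine before the run, just under that minimum with 19 runs, went the other way, at 0.935 in old and 0.759 in young livers, with overlap. All residues were read in the same libraries, so these counts are not independent.

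**Figure D3:**
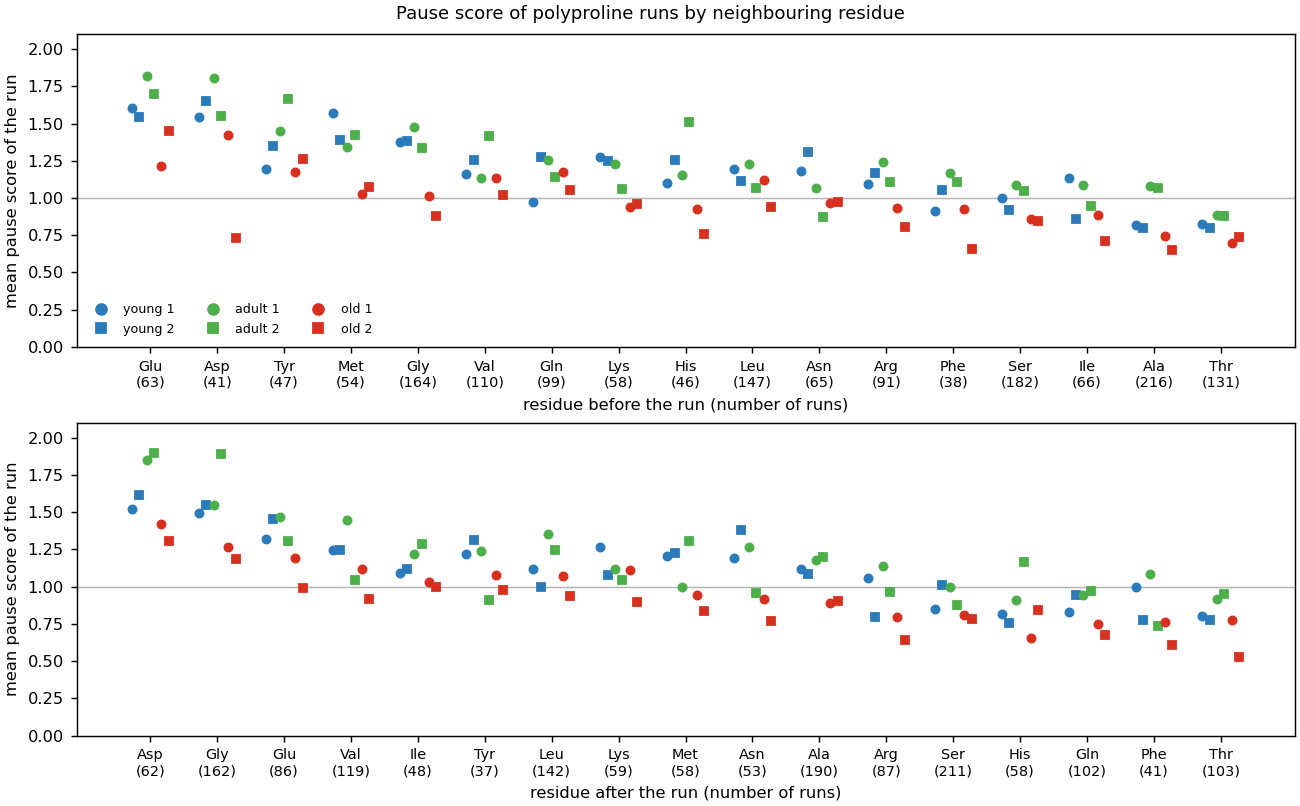
Mean pause score of polyproline runs in each library, by the residue before (top) and after (bottom) the run, for residues with at least 20 runs, in falling order of their mean. Aspartate and glycine after the run stand highest, and the old libraries lie low across residues, at 1.42 and 1.30 after aspartate.

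Aspartate, glycine and glutamate after adjacent prolines also ranked high among tripeptides. The pause score was averaged over the 3 codons of each of 6565 tripeptides with at least 100 internal occurrences. Pro-Pro-Asp ranked 1 of 6565 with a mean of 2.18 over the 6 libraries, Pro-Pro-Gly ranked 4 with 1.76, Pro-Pro-Glu ranked 12 with 1.64 and Gly-Pro-Pro ranked 31 with 1.51. The order was not the same throughout. Pro-Pro-Ser ranked 205 with 1.30, while runs followed by serine averaged only 0.929 in young and 0.793 in old livers. Pro-Pro-Pro itself, with 2462 occurrences, ranked 4196 with 0.941. It stood at 0.992 and 0.974 in young fish, 1.07 and 1.04 in adult fish, and 0.835 and 0.742 in old fish, so that both old libraries lay below all others. The fitted log2 difference (limma across all 6565 tripeptides) was -0.32 for old against young livers (SE 0.0887, adjusted p = 0.662), 0.097 for adult against young (adjusted p = 0.945) and -0.42 for old against adult (adjusted p = 0.229). None passed the threshold of 0.05. Counted from the lowest value, Pro-Pro-Pro was 7 of 6565 for old against young and 2 of 6565 for old against adult. No tripeptide was called in any comparison by limma (0 of 6565, 0.00%), and 419, 396 and 664 had an unadjusted p under 0.05 for old against young, adult against young and old against adult.

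The 37 tripeptides with adjacent prolines leaned the same way. For old against young livers, 36 of 37 had a negative log2 difference, with a median of -0.18, against 3058 of 6565 and a median of 0.0092 over all tripeptides. Methionine after the pair was the exception, at 0.0033. For old against adult livers 36 of 37 were negative with a median of -0.22, against 2963 of 6565. Between adult and young livers 11 of 37 were negative, with a median of 0.039. Tripeptides with 1 proline had a median of -0.055 for old against young (674 of 931 negative), and GC-rich tripeptides (over 65%) without proline a median of -0.030 (251 of 396). High pause scores as such went with lower values in old livers. Among tripeptides without proline whose mean pause lay between 1.1 and 1.5, the median was -0.025 (650 of 1034 negative), whereas the 21 adjacent-proline tripeptides in that range had a median of -0.17, all 21 negative. The 2 sets overlap in occurrences, since neighbouring tripeptides share codons. The 37 overlap among themselves for the same reason and include Pro-Pro-Pro, so their signs are not independent of each other or of the runs.

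**Figure D4:**
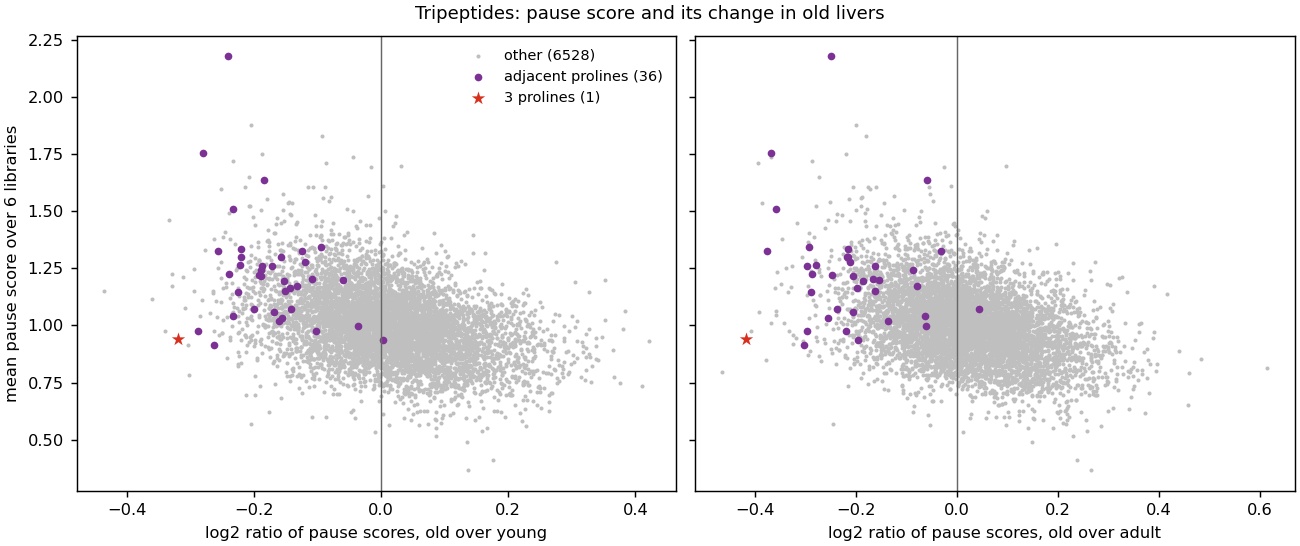
Each point is a tripeptide, placed by the log2 ratio of pause scores (old over young, left; old over adult, right) and by its mean pause score over the 6 libraries. Those with adjacent prolines (purple) and the triple proline (red star, at -0.32 and -0.42) lie to the left of 0, apart from 1 purple point in each panel.

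Runs A to J were ranked by their mean over all libraries, so a high score at every age was partly built into the choice. Run A, a stretch of 5 prolines between tyrosine and glutamine, had pause scores of 4.94 and 7.91 in young fish, 5.31 and 5.93 in adult fish, and 5.08 and 5.20 in old fish, on 10832 to 72723 reads. The old values lay within the young range. Run B, which lies late in its coding sequence between histidine and alanine, reached 6.14 and 6.22 in young fish, 5.02 and 4.91 in adult fish, and 5.07 and 4.61 in old fish. Run G, flanked by aspartate and glutamate, reached 3.99 and 3.84, 3.22 and 3.63, and 2.76 and 2.40. In runs B and G both old libraries lay below both young ones. Of the remaining runs with high scores, C to E and H ranged from 1.99 to 5.53 over the libraries, F from 2.67 to 3.88, and I and J from 1.64 to 3.36. Over all 60 runs with at least 20 reads in each library, the mean was 1.70 and 1.74 in young fish, 1.68 and 1.68 in adult fish, and 1.46 and 1.41 in old fish.

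**Figure D5:**
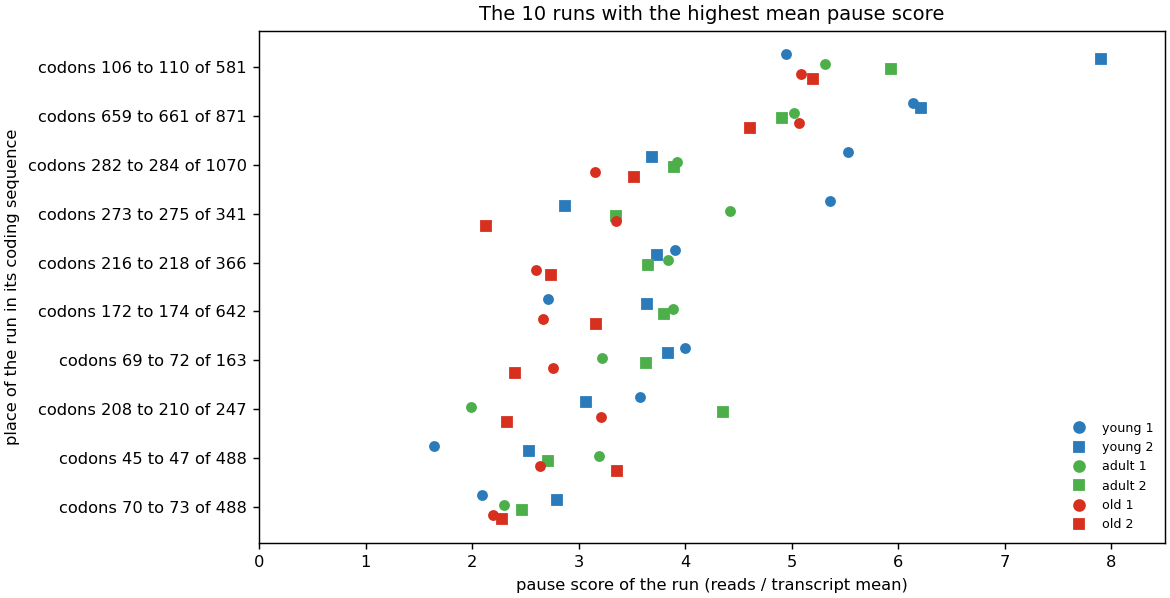
Pause score of the 10 runs with the highest mean among runs with at least 20 reads in each library (A to J from top to bottom), by library. Both old libraries lie below both young ones for codons 69 to 72 of 163, and above both young ones for codons 45 to 47 of 488.

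Fisher calls on single runs went in both directions, with more falls than rises in old livers. Reads of each stretch were set against the rest of its transcript by Fisher's exact test (two-sided), over 2318848 stretches and with both libraries of an age summed. Between old and young livers 5 runs rose and 20 fell of 1642, or 0.305% and 1.22%, against 0.380% and 0.456% of all stretches. Between old and adult livers 3 rose and 28 fell (0.183% and 1.71%), against 0.267% and 0.314%. Between adult and young livers 15 rose and 8 fell (0.914% and 0.487%), against 0.351% and 0.398%. Summed reads carry no library spread, so direction in single libraries was counted over the 409 runs with at least 30 reads. Both old libraries lay below both young ones for 132 runs (32.3%) and above for 30 (7.33%), against 19.7% and 21.3% of stretches with as many reads. For old against adult livers the counts were 148 below (36.2%) and 30 above (7.33%), against 18.3% and 19.0%. For adult against young livers 88 lay above (21.5%) and 73 below (17.8%), against 19.6% and 18.6%.

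A model with library spread called a single run. In edgeR's quasi-likelihood test over 298603 stretches with at least 30 reads, 1 of 409 runs was lower in old than in young livers and 0 were higher, against 0.186% lower and 0.231% higher of all these stretches. At an unadjusted p under 0.05 there were 27 lower (6.60%) and 3 higher (0.733%), against 4.53% and 5.29%. Adult against young gave 0 calls for runs, against 0.0928% higher and 0.0516% lower over all stretches. At an unadjusted p under 0.05 there were 19 runs higher and 11 lower (4.65% and 2.69%), against 4.77% and 4.0% of stretches. Old against adult also gave 0, against 0.00670% higher and 0.0224% lower. At an unadjusted p under 0.05 there were 0 runs higher and 31 lower (7.58%), against 3.24% and 3.25%. The median log2 difference over the 409 runs was -0.24 for old against young, 0.090 for adult against young and -0.36 for old against adult, against 0.017, 0.014 and 0.0029 over all stretches. The called run was M, in transcript Nfu_t_1_019109, the coding sequence of 581 codons that also holds run A. It had 491 and 252 reads in young fish, 126 and 219 in adult fish, and 110 and 27 in old fish, and its log2 difference was -1.24 for old against young (edgeR, adjusted p = 0.0213). Its pause scores were between 0.013 and 0.0338 in every library, so that it lay far below the transcript's mean at all ages. Over the bases shown, runs M and A differ only in the third proline codon (CCT in M, CCA in A). Whether reads of run A were counted on run M was not tested.

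Of the 5 runs that the Fisher test called as risen in old against young livers, K, I and L were those whose libraries did not overlap. Run K in transcript Nfu_t_1_029575 had pause scores of 0.745 and 0.832 in young fish, 1.16 and 1.04 in adult fish, and 1.11 and 1.23 in old fish. Run I of the same transcript had 1.64 and 2.53 in young fish, 3.19 and 2.71 in adult fish, and 2.63 and 3.36 in old fish. Over the bases shown, runs K and I differ only before the run, and exchange of reads between them was not tested. Run L, between asparagine codons of a 1070-codon coding sequence (Nfu_t_1_006516), had 1.61 and 1.86 in old and 1.52 and 1.37 in young libraries. Among the 16 runs that fell without overlap, run N in a coding sequence of 663 codons had 11 and 3 reads in old and 11 and 21 in young libraries, with pause scores of 0.862 and 0.405 in old and 1.71 and 2.42 in young (transcript Nfu_t_1_033770). Run O, late in a coding sequence of 191 codons, had 1.02 and 0.748 in old and 2.41 and 2.07 in young libraries. The adjusted p of edgeR was 0.31 or higher for runs I, K, L, N and O.

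A few abundant transcripts held most of the reads. The 10 runs with the most reads lay in 3 coding sequences of 441, 488 and 581 codons and held 77.1% of all reads in runs. Together these had 23 of the 1642 runs. A window of 9 codons around the third proline recurred codon for codon elsewhere in the reference for 14 runs (0.853%). Of these, 12 recurred within the same transcript, and near copies were not counted. The 14 runs held 20.1% of the reads in runs, and the deposited reads had been kept only where they aligned to a single best place. Summing reads before division, which weights runs by depth, gave 0.904 and 0.996 in old and 0.879 and 1.11 in young libraries, with overlap. Without the 3 transcripts the summed values were 1.14 and 1.14 in young fish, 1.21 and 1.20 in adult fish, and 1.07 and 1.11 in old fish, and both old libraries lay below the others. The plain mean over runs was the same with them and without them to within 0.00225 in each library.

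Ribosomes queued behind the runs were looked for at 8 to 12 codons before the third proline of the run, about the length of a footprint upstream. Density there was 1.01 and 1.03 in young fish, 1.02 and 1.05 in adult fish, and 0.948 and 0.980 in old fish. The old minus young difference was -0.0595 and the old minus adult difference -0.069 (exact permutation p = 0.33 each), with both old libraries below the others. With 1 value per transcript the old minus young difference was -0.0212 (exact permutation p = 0.667), and old replicate 2 lay above young replicate 1. Adult and young libraries overlapped (difference 0.0095, exact permutation p = 0.667). Downstream of the runs, from 6 to 15 codons after the last proline, the old minus young difference was -0.0678. The lower density in old livers was thus not particular to the place of a queue. Strong pauses, with a score above 6, took 3.71% and 2.91% of run codons in young fish, 2.84% and 4.58% in adult fish, and 1.29% and 1.90% in old fish. Over all internal codons the shares were 2.54% and 2.08%, 1.90% and 3.30%, and 1.22% and 2.16% at the same ages, and such shares depend on depth.

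Among transcripts with a run, falls in occupancy outnumbered rises in old livers, as they did among all covered transcripts. Of 953 tested, 21 had more footprints in old than in young livers and 88 had fewer (2.20% and 9.23%), against 3.30% and 8.71% of covered transcripts and 6.56% and 5.01% of all 15557 tested (edgeR). Old against adult livers gave 8 higher and 21 lower (0.839% and 2.20%), against 1.09% and 2.23% of covered and 2.37% and 1.45% of all transcripts. Adult against young livers gave 1 in each direction (0.105% each), against 0.758% higher and 0.0947% lower of covered and 1.17% and 0.186% of all transcripts. Matched mRNA levels were not used here, so occupancy holds both mRNA abundance and translation. The covered transcripts include those with a run, and the difference in shares was not tested. The count for old against young fell to 0 without either young library.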

How the data were processed

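Footprints were sequenced from 6 libraries of pooled killifish liver, 2 per age. The deposited values were raw counts of footprints per codon, in a separate table for each library. The authors trimmed adapters (Cutadapt 1.4.2), removed the first nucleotide and rRNA reads, and aligned the rest with Bowtie 1.3.1 to the longest transcript of 22757 genes, where a read needed a unique best place with at most 2 mismatches. Unique alignment can thin out repeated stretches. They assigned reads to codons with riboWaltz offsets. The methods name a genome build for other data of the study but not for the footprint reference. No molecular identifiers were described, so PCR copies count as separate reads, and p-values over libraries measure the spread between pools only.

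Codons were translated, and pause scores were taken without the first and last 20 codons. Libraries were compared with exact permutation tests, tripeptides (log2 pause score) with limma 3.58.1, and stretches with Fisher's exact test and edgeR 4.0.16, whose offsets held each library's reads in the transcript. Transcripts were tested with edgeR (TMM, filterByExpr) in R 4.3.3. Benjamini-Hochberg adjusted p under 0.05 was called. Steps across many features were tested on simulated data. Runs were named by 4 rules: the 10 highest mean pause scores with 20 reads in each library, up to 5 rises and 5 falls per comparison that Fisher's test called without overlap (given in part), those edgeR called, and the longest run with the transcript of most runs. Members, lists and rules were chosen with earlier results of these data known. Identifiers matched 0 names in the gene table, so lists of genes by pathway or cell type were not used. Replicate numbers were not used to pair the libraries in the main tests.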

Additional observations from a re-analysis of the deposited data

How the results depend on the processing

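Run density kept its sign in most settings. For old against young livers the difference of -0.193 reversed to 0.101 with summed reads without the 10 most-read runs, a setting chosen after seeing the data, and old against adult reversed to 0.0752 there. Without the 3 transcripts of those runs, a setting also chosen after seeing the data, the same ratio gave -0.0516 and -0.114. Adult against young reversed to -0.0125 for runs of 4 or more. Leaving out a library gave -0.238 to -0.148 for old against young, 0.0632 to 0.099 for adult against young and -0.319 to -0.229 for old against adult. For density before runs, adult against young (0.0095) ranged from -0.0073 (without adult replicate 2) to 0.026, and was -0.00037 without young replicate 1. Pro-Pro-Pro passed the threshold once, for old against adult without adult replicate 1 (log2 -0.40, limma, adjusted p = 0.0336), in a fit that called 206 of 6565 tripeptides. Leaving out a library gave -0.50 to -0.33 there, and summed reads gave -0.11. For old against young they gave -0.41 to -0.23 and -0.062. Summed reads put runs below isolated prolines by -0.40 and pairs by -0.44 on the log2 scale (exact sign-flip permutation test, adjusted p = 0.0446 each). On the third proline of the run alone, isolated prolines were exceeded in 1 of 6 libraries.

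Calls on single runs were few. Leaving out a library gave 16 to 22 Fisher calls for old against young, 19 to 25 for adult against young and 20 to 29 for old against adult. Libraries thinned to equal reads gave 14 for adult against young and 20 for old against adult, and single codons gave 44 for adult against young, with 21 higher and 23 lower in place of 15 and 8. The edgeR calls were 2, 1 and 1 for old against young, adult against young and old against adult with a minimum of 10 reads (1624, 807 and 257 of all 730595 stretches), and 3 for old against young in DESeq2 (1690 of 55455 with an adjusted p). Leaving out a library gave 0 to 3 for old against young, 0 to 1 for adult against young and 0 for old against adult. Occupancy calls (109, 2 and 29 transcripts in that order) became 185, 26 and 125 in DESeq2 (over all transcripts 2795 and 690 of 15255, and 1946 of 15557), and 147, 22 and 101 with no filter on low counts (2735, 685 and 1905 of 21030). Leaving out a library gave 0 to 59, 0 to 10 and 0 to 29, so these counts rest on single libraries. It was 0 without either young library.

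Over 6335 transcripts, the differences between replicate numbers correlated at 0.169 (old with young), -0.228 (adult with young) and -0.256 (old with adult). These values cannot tell whether libraries shared a preparation batch. With a replicate block, occupancy calls were 45, 0 and 0, against 952, 28 and 1 of all 15557 transcripts. Fisher calls for old against adult were 20 (Cochran-Mantel-Haenszel test). The edgeR calls for runs were 1, 0 and 0, against 1561, 586 and 103 of all 298603 stretches. Run density kept -0.193 for old against young with a block (exact permutation p = 0.5, the smallest possible). The cause of these changes was not tested. Depth limits single runs, with a median of 13 reads.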

Other observations

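Runs early in the coding sequence held more footprints than later ones. The 488 runs in the first of 3 equal parts averaged 1.26 ± 0.0114 in young, 1.4 ± 0.0527 in adult and 1.09 ± 0.0421 in old livers (SD, n = 2 each). The 536 runs in the middle part averaged 1.05 ± 0.0243, 1.13 ± 0.0357 and 0.856 ± 0.0684 at the same ages, and the 618 in the last part 1.07 ± 0.0236, 1.1 ± 0.00527 and 0.862 ± 0.0751. In each part both old libraries lay below the other 4. Runs that were the only run of their transcript averaged 1.18 ± 0.032 in young, 1.24 ± 0.0346 in adult and 1.02 ± 0.0771 in old livers.

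The level also differed by the third codon of the run. With CCT there, runs averaged 1.00 ± 0.0666 in old and 1.22 ± 0.0266 in young livers (SD, n = 2 each), and with CCC 0.775 ± 0.0359 in old and 1.01 ± 0.0569 in young. Over the 173 runs with CCG the means were 1.13 in young, 1.42 in adult and 1.00 in old livers. No test was made among the parts of the coding sequence or among these codons.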
